A study of Mus musculus with 8 samples.

Results

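The genes described here were counted in early mammary tumour lesion cells, while TUBO, a breast cancer cell line, gave no count for any of them. They were chosen by their early lesion and TUBO counts: a gene was taken when it reached 3 or more CPM in both early lesion libraries and had 0 counts in both TUBO libraries. CPM is a gene's count for every 1000000 gene counts of its library. Of 23478 genes in the table, 10611 passed the early lesion minimum, and 94 of those had no TUBO count. A further 7 were set aside by symbol, namely Cd55, Cdkn2a, Cdkn2b, Igfbp3, Mmp16, Rspo3 and Tfap2b, which left 87 genes. The other 10517 early lesion genes had a TUBO count and serve below as the genes to set the 87 beside. Since early lesion and TUBO counts chose the genes, their values in those 4 libraries are a description with no test.

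The series holds 8 mouse RNA sequencing libraries in 4 groups of 2, and every group is labelled wild type and breast cancer. Disseminated cancer cells (DCC) came from bone marrow of mice whose breast cancer had spread spontaneously, and were either treated with interferon-gamma, a cytokine made by T helper 1 and NK cells, or left as a control. The early lesion group holds primary cancer cells of an early mammary tumour lesion, whose titles add neuT, the name of an activated rat Erbb2 oncogene used as a transgene. TUBO stands untreated and is a single line, known as one derived from a mammary carcinoma of neuT mice. Strain, age, cell purity, pooling of animals and the dose and duration of interferon-gamma are not given in the sources used here. Replicates are labelled biological, but nothing says that they came from separate cultures or animals, so p-values measure only the spread between these libraries.

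Tumour cells and the lines grown from them share an oncogene and many lineage genes, but a line descends from few cells and has been grown on plastic. Promoters rich in CpG, the base pair step at which mammalian DNA is methylated, are the kind that can be shut stably by methylation. Methylation was not measured here.

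The promoters of 5 of the 87 genes are shown because they include CpG-rich and CpG-free windows and a head-to-head pair. Each is the RefSeq window of GRCm38.p6 from 250 bases before to 50 bases after the gene's start, read 5' to 3' on the gene's strand, with every CG in capitals. Ptprg (chr14:11553303-11553602, plus strand), a receptor-type tyrosine phosphatase, held 36 CG. Slit2 (chr5:47982905-47983204, plus strand), a secreted ligand of Robo receptors, held 30. Csn1s1 (chr5:87665958-87666257, plus strand), which encodes the milk protein alpha-S1 casein, held 0. Evc (chr5:37336832-37337131, minus strand) and Evc2 (chr5:37338228-37338527, plus strand), whose proteins act together at the base of the primary cilium in Hedgehog signalling, held 16 and 19.
Ptprg: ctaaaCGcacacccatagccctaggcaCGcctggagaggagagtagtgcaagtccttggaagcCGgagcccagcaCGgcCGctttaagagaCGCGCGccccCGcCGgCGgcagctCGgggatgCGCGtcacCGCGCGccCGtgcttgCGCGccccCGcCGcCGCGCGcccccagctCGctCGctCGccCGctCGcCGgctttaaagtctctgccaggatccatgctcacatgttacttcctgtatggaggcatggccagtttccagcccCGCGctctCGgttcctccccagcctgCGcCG
Slit2: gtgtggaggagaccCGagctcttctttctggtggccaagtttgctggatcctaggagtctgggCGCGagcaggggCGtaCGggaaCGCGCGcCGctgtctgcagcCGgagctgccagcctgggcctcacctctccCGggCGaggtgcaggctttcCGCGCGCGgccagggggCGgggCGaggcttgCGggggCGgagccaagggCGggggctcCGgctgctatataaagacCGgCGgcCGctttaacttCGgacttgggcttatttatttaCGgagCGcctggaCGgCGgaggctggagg
Csn1s1: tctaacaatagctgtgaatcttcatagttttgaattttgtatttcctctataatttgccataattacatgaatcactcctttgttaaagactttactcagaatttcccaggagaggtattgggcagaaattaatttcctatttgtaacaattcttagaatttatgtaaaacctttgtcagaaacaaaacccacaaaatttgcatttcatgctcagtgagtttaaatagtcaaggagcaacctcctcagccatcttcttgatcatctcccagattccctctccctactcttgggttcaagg
Evc: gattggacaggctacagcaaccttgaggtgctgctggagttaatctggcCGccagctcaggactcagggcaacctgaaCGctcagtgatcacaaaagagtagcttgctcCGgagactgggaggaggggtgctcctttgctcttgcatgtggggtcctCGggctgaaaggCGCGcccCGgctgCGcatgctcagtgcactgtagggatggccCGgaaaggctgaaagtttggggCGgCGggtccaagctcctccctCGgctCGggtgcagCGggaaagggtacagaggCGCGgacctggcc
Evc2: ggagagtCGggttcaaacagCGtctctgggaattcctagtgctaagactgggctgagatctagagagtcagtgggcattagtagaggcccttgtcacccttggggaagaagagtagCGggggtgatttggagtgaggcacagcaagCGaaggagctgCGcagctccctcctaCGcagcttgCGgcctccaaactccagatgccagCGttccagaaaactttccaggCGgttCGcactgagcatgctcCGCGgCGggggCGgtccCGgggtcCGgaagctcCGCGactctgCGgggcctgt

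A RefSeq promoter was found for 73 of the 87 genes (83.9%). The median window held 23 CG, against 22 for early lesion genes with a TUBO count and 13 for all genes with a window. CpG-rich windows, with at least 50% G or C and an observed over expected CpG ratio of at least 0.6, made up 53 of the 73 (72.6%), against 74.7% of early lesion genes with a TUBO count and 46.2% of all genes. The median CpG ratio was 0.731 for the 73 windows, 0.797 for early lesion genes with a TUBO count and 0.585 for all genes. At the low end, the windows of Gzme, Naip2 and Csn1s1 had no CG, which is 4.11% of the 73, against 0.248% of early lesion genes with a TUBO count and 4.72% of all genes. The CpG-rich share thus lay near that of other early lesion genes and above that of all genes, as a description with no test.

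**Figure D1:**
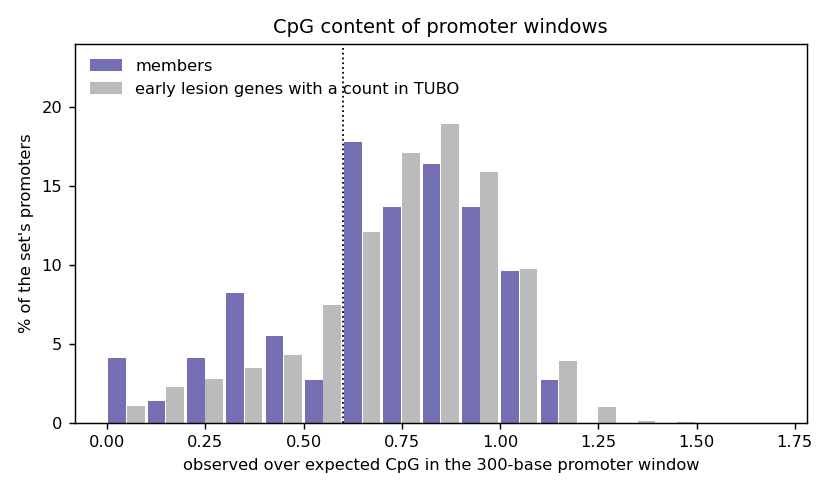
Share of promoter windows (vertical axis, percent of each set) by observed over expected CpG in 300 bases (horizontal axis), for the 73 matched genes without a TUBO count and for early lesion genes with one. The dotted line marks 0.6, and both sets lie mostly to its right, with medians of 0.731 and 0.797.

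The labels were checked against marker genes. Early lesion and TUBO libraries both held the epithelial genes, with Epcam at 872 and 899 CPM in early lesion and 1022 and 1053 CPM in TUBO. Epcam had 0 and 0 CPM in interferon-gamma-treated DCC and 0 and 0.161 CPM in control DCC, and Krt8, Krt18 and Cdh1 were below 0.5 CPM in all 4 DCC libraries. Vim, a mesenchymal filament gene, was at 3413 and 4380 CPM in interferon-gamma-treated DCC, 1559 and 1930 CPM in control DCC, 96.8 and 104 CPM in early lesion, and 119 and 109 CPM in TUBO. Erbb2 was at 34.1 and 32.7 CPM in interferon-gamma-treated DCC, 22.6 and 23.6 CPM in control DCC, 255 and 270 CPM in early lesion, and 256 and 237 CPM in TUBO. Col1a1, a collagen gene, was at 370 and 466 CPM in interferon-gamma-treated DCC and 4151 and 4336 CPM in control DCC. It was below 6 CPM in early lesion and TUBO. Ptprc, a leukocyte marker, was at 54.9 and 35.5 CPM in interferon-gamma-treated DCC and 7.71 and 2.73 CPM in control DCC. In early lesion it was at 0 and 1.36 CPM. The DCC libraries thus lacked the epithelial markers that the other 4 libraries shared, and held Vim, Col1a1 and Ptprc at higher levels. A DCC value below is a value of cells with that profile.

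Gene counts ran between 15432210 and 30168475 a library. Of 1450 olfactory and vomeronasal receptor genes, which few tissues express, 63.7% had a count in early lesion replicate 2 and 1.24% in replicate 1. The share was 47.7% and 11.9% in control DCC replicates 1 and 2, between 1.17% and 2% in interferon-gamma-treated DCC and 0.966% in both TUBO libraries. The 99th percentile of those receptor genes was 0.0501 CPM in early lesion replicate 1 and 0.833 CPM in replicate 2, below the rule's minimum of 3 CPM. It was 1.49 and 0.522 CPM in control DCC replicates 1 and 2, and 0.107 and 0.0529 CPM in interferon-gamma-treated DCC. The part of such counts in the other values was not tested. In bulk RNA, fewer cells of a type and less RNA per cell cannot be told apart.

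A summed TUBO count of 0 was more frequent among early lesion genes than counts just above 0, and the counts carry a limit. Among early lesion genes, 94 had a summed TUBO count of 0, 12 had 1 to 3, 40 had 4 to 10, 76 had 11 to 30 and 198 had 31 to 100. The distribution thus had more genes at 0 than just above it. Over the whole table, 462 genes had 1 to 7 counts and 931 had 8 to 19 in TUBO replicate 2. In replicate 1 these were 1040 and 822. Low counts were thus scarce in replicate 2 for any gene, so the gap cannot be read as a property of these genes. A count of 0 allows up to 0.102 CPM in TUBO replicate 1 and 0.111 CPM in replicate 2, taking 3 counts as the floor, which covers counting error only. The TUBO libraries went beyond that error, since 527 genes of the table had 0 counts in replicate 1 and 10 or more in replicate 2, and 358 the reverse. Among early lesion genes, 109 were counted in only 1 of the TUBO libraries, with a median count of 11 and a highest count of 51. The highest CPM of an early lesion gene in a TUBO library that had 0 in the other was 1.74, which is below the minimum of 3 CPM that the rule asked of early lesion. No fold against TUBO is given for that reason.

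**Figure D2:**
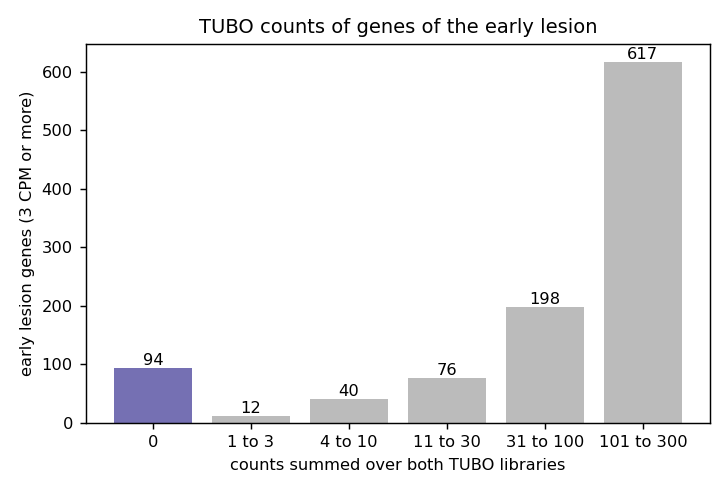
Number of early lesion genes (vertical axis) by their counts summed over both TUBO libraries (horizontal axis). The bar at 0 holds 94 genes, among them the 87 described, and the bar from 1 to 3 counts holds 12.

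The 87 genes were mostly of modest level in early lesion cells. The lower of the 2 early lesion values ran from 3.02 to 132 CPM with a median of 6.8 CPM, against a median of 36 CPM for early lesion genes with a TUBO count. Of the 87, 61 reached 5 CPM and 31 reached 10 CPM in both libraries. Early lesion replicates lay within 1.5 times of each other for 81 of them (93.1%), against 97.4% of the genes with a TUBO count. Just inside the minimum were Hyi with 3.05 and 3.18 CPM, Tmem159 with 3.12 and 3.03 CPM and Otos with 3.02 and 3.58 CPM. Just outside it, also without a TUBO count, were Tbcel with 2.88 and 3.89 CPM, Tmem64 with 2.85 and 3.23 CPM and Pycard with 2.78 and 2.83 CPM.

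Across 18 marker lists of other cell types and mammary lineages, 4 of the 87 appeared, among them Reln, Oxtr and Csn1s1, and with the programme lists added Satb1 and Slit2 made 6. All lists together held 684 entries found in the table. No share over other early lesion genes was computed, so whether 4 or 6 is few or many is not known. Protein-coding genes made up 84 of the 87, and 86 had coordinates in the GENCODE annotation. Hyi and Atp10d are annotated as polymorphic pseudogenes. The exons of 8 overlap another named gene, and Gzme, Naip2, Tubb2b and Pcdhga10 have near-identical relatives, so their counts are uncertain. Per kilobase of exon, the early lesion level was highest for H1fx at 19.1 CPM per kb, Fam174b at 15.5, Gzme at 13.2 and Ptprg at 12.3, over a range from 0.177 and a median of 1.58 CPM per kb.

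**Figure D3:**
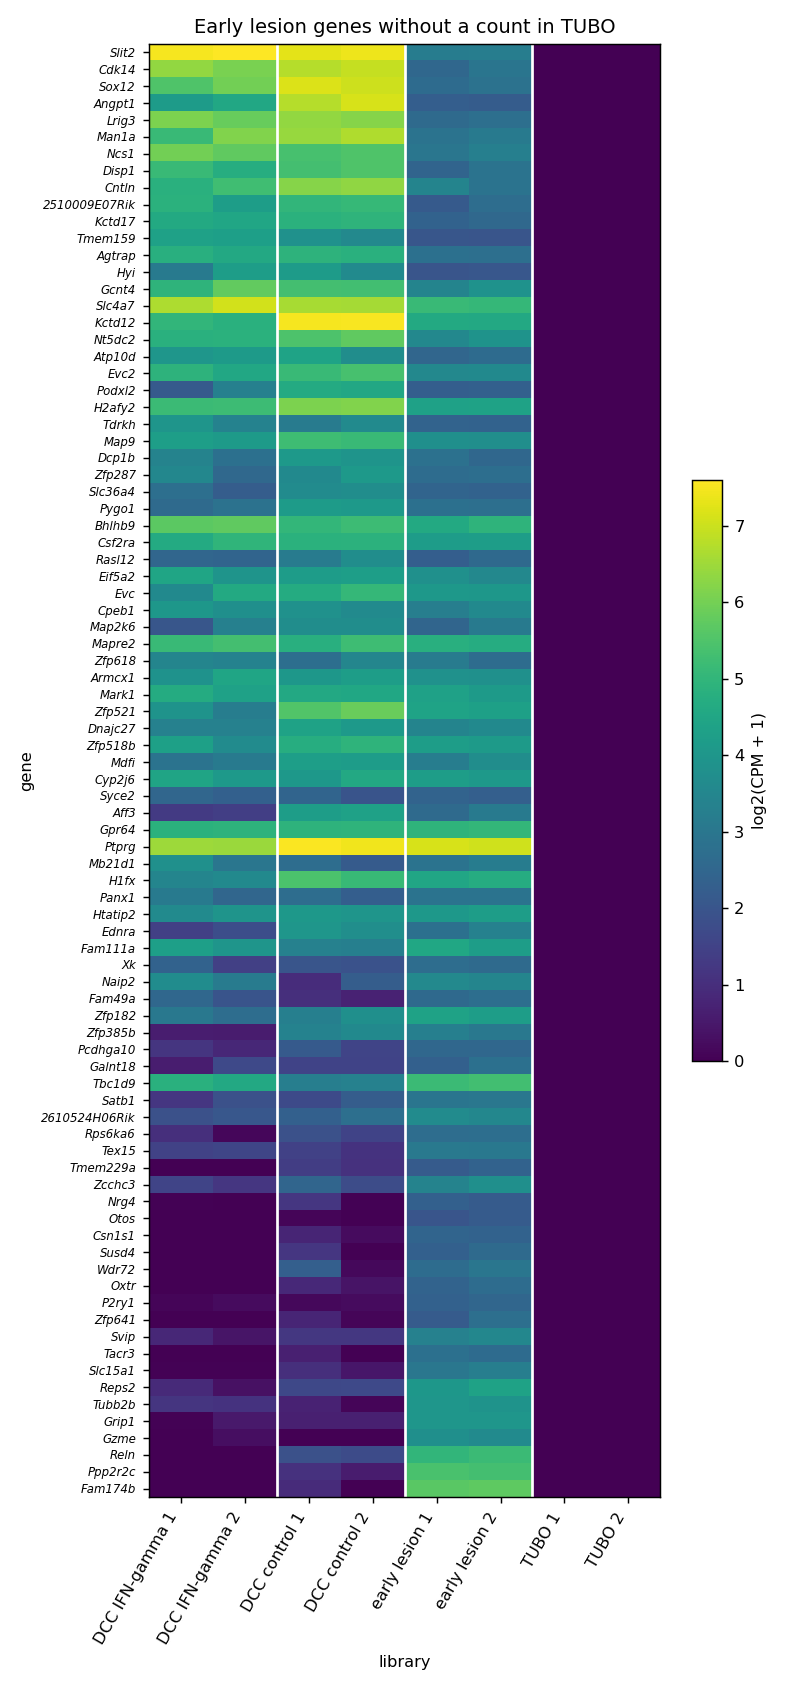
Level of 86 of the genes (rows) in the 8 libraries (columns) as log2(CPM + 1), sorted by the difference of mean log2 level between DCC and early lesion. The TUBO columns are at 0, the upper rows are higher in DCC than in early lesion, and the lowest rows, Fam174b, Ppp2r2c and Reln, are low in DCC.

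Receptors made the first group by role, with 11 genes. Ptprg (chromosome 14, 11553532 to 12242041) had 88.9 and 87 CPM in interferon-gamma-treated DCC, 188 and 174 CPM in control DCC, 139 and 132 CPM in early lesion and 0 in TUBO. All 6 libraries outside TUBO held it, and control DCC lay above early lesion. Gpr64 (chromosome X), an adhesion G-protein-coupled receptor known from the epididymis, was level across 3 groups, with 28 and 29.3 CPM in interferon-gamma-treated DCC, 29.4 and 29.5 CPM in control DCC, and 29.8 and 31.5 CPM in early lesion. Csf2ra, the alpha chain of the GM-CSF receptor, had 24.1 and 30.6 CPM in interferon-gamma-treated DCC, 27.7 and 28.6 CPM in control DCC, and 17.3 and 17.9 CPM in early lesion.
Lrig3, a leucine-rich transmembrane protein, ran far higher in DCC, with 67.2 and 55.8 CPM after interferon-gamma, 81.8 and 73.4 CPM in control DCC, and 5.24 and 5.91 CPM in early lesion. Other receptors were higher in early lesion than in DCC. Oxtr, the oxytocin receptor that drives milk ejection, had 0 and 0 CPM in interferon-gamma-treated DCC, 0.842 and 0.321 CPM in control DCC, and 4.38 and 5.4 CPM in early lesion. Tacr3, the neurokinin B receptor, and P2ry1, an ADP receptor, were likewise below 0.6 CPM in every DCC library, while their early lesion values lay between 4.14 and 5.93 CPM.

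Secreted proteins split the same way. Reln (chromosome 5, 21884454 to 22344702), the extracellular glycoprotein reelin, had 0 and 0 CPM in interferon-gamma-treated DCC, 2.66 and 2.33 CPM in control DCC, and 31.2 and 35.5 CPM in early lesion. Reelin is also a lymphatic endothelial marker, and the median early lesion level over that list, Reln included, was 0.278 CPM. Slit2, whose promoter is shown above, was higher in DCC than in early lesion, with 180 and 193 CPM after interferon-gamma, 155 and 170 CPM in control DCC, and 8.15 and 8.33 CPM in early lesion. Angpt1, the ligand that activates the endothelial receptor Tie2, had 17 and 22.5 CPM in interferon-gamma-treated DCC, 108 and 139 CPM in control DCC, and 3.78 and 3.63 CPM in early lesion.
Its control DCC over early lesion ratio of 33.3 was the highest of the 87. Csn1s1 had 0 and 0 CPM in interferon-gamma-treated DCC, 0.713 and 0.161 CPM in control DCC, and 4.41 and 4.24 CPM in early lesion. Gzme, a granzyme of cytotoxic lymphocytes, had 0 and 0.21 CPM in interferon-gamma-treated DCC, 0 and 0 CPM in control DCC, and 12.7 and 11.4 CPM in early lesion. The T and NK cell markers summed to 1.26 and 5.7 CPM in early lesion, and their part in the Gzme counts was not tested.

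**Figure D4:**
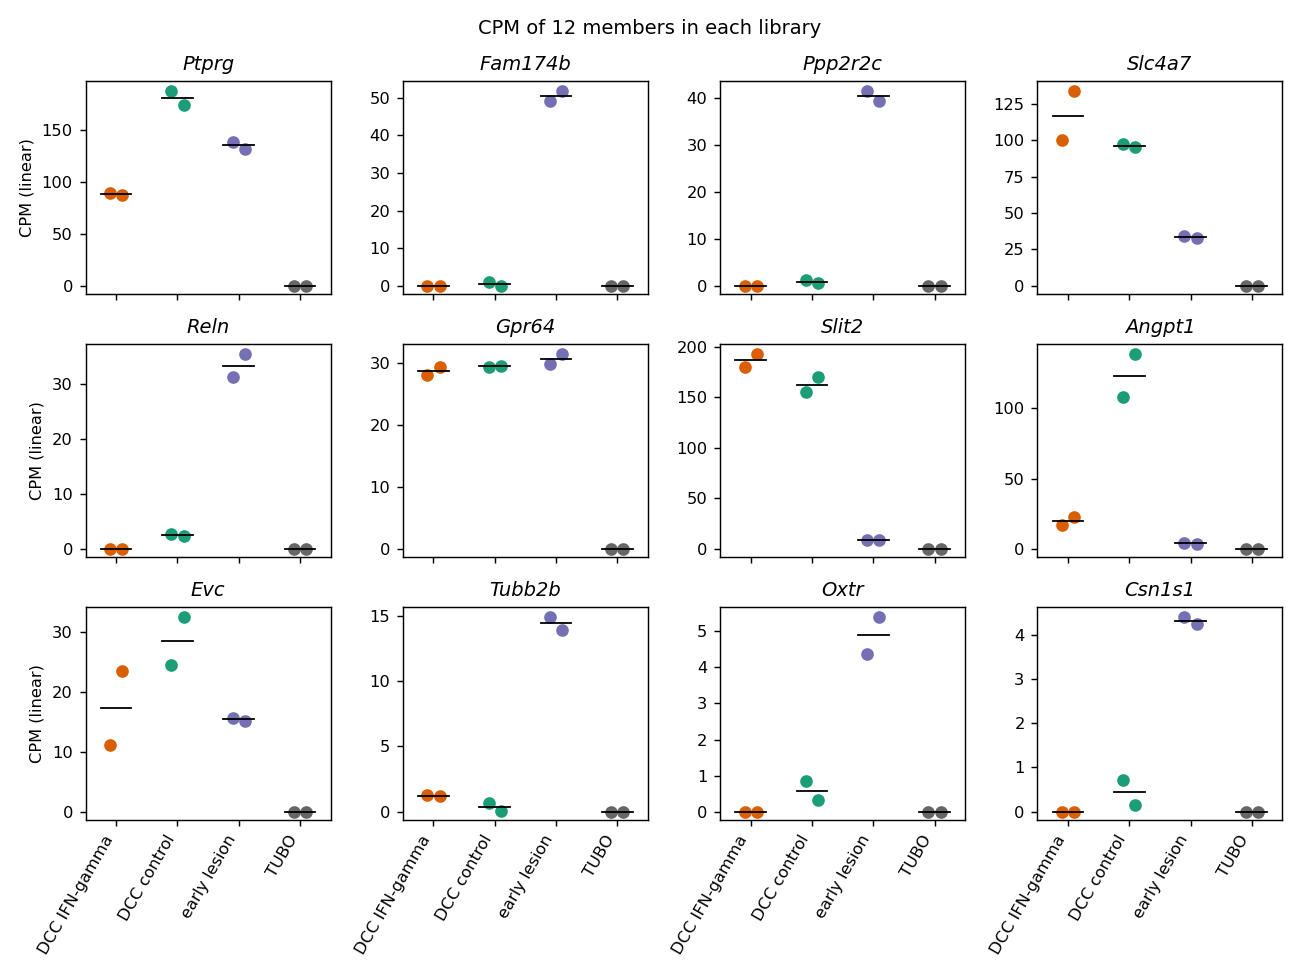
CPM on linear axes of 12 of the genes in each library (dots) by group, with lines at the group means. TUBO dots are at 0 in all 12 panels; Slit2 and Angpt1 are higher in control DCC than in early lesion, and Fam174b, Ppp2r2c, Reln, Tubb2b, Oxtr and Csn1s1 are low in DCC.

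The ciliary genes Evc and Evc2 lie head to head on chromosome 5, with starts 1605 bases apart in the annotation, and both were without a TUBO count. Evc had 11.2 and 23.6 CPM in interferon-gamma-treated DCC, 24.6 and 32.6 CPM in control DCC, and 15.7 and 15.2 CPM in early lesion. Evc2 had 29.4 and 22.5 CPM in interferon-gamma-treated DCC, 34.3 and 41.3 CPM in control DCC, and 10.6 and 11.2 CPM in early lesion. The other genes of this role, Disp1, which releases Hedgehog ligand from cells, and Cntln, a centrosome protein, were also higher in control DCC than in early lesion, at ratios of 7.8 and 9.49.

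Chromatin and transcription genes were the largest role group, with 14 genes, of which 13 were at 1 CPM or more in both control DCC libraries and 12 in both interferon-gamma-treated ones. H1fx encodes a linker histone and H2afy2 the histone variant macroH2A2. H2afy2 had 35.3 and 36.1 CPM in interferon-gamma-treated DCC, 68.2 and 70.8 CPM in control DCC, and 19.2 and 20 CPM in early lesion. Its relative H2afy, macroH2A1, was counted in TUBO at 85.3 and 106 CPM. Of 42 of the genes with a listed relative, 31 had a relative at 1 CPM or more in both TUBO libraries, among them Eif5a for Eif5a2, Mapre1 for Mapre2 and Tubb2a for Tubb2b. The 11 without one included Ptprg, Slit2, Angpt1, Ednra and Zfp521.

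Slc4a7, a sodium bicarbonate cotransporter, was counted throughout DCC and early lesion, with 99.9 and 134 CPM in interferon-gamma-treated DCC, 97.3 and 95.1 CPM in control DCC, and 34.2 and 32.6 CPM in early lesion. Fam174b had 0 and 0 CPM in interferon-gamma-treated DCC, 0.907 and 0 CPM in control DCC, and 49.1 and 51.9 CPM in early lesion, and Ppp2r2c, a regulatory subunit of protein phosphatase 2A, had 0 and 0, 1.1 and 0.482, and 41.6 and 39.4 CPM in those groups. DCC held almost none of either. Innate immune genes were present too: Mb21d1 encodes cGAS, the sensor of cytosolic DNA, Naip2 an inflammasome sensor, and Panx1 a channel that releases ATP.

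Across the 87, most were counted in DCC. At 1 CPM or more in both libraries, 64 (73.6%) were present in interferon-gamma-treated DCC and 70 (80.5%) in control DCC. That minimum lay above the 99th percentile of the receptor genes in control DCC replicate 2 (0.522 CPM) but below it in replicate 1 (1.49 CPM). Presence in control DCC near 1 CPM is therefore uncertain. The shares among early lesion genes with a TUBO count were 93.5% and 94.7%. Both DCC groups held 61, interferon-gamma-treated DCC alone 3, control DCC alone 9, and neither 14 (16.1%, against 4.41% of genes with a TUBO count). Among genes at 10 CPM or more in both early lesion libraries, 80.6% of those without a TUBO count and 95.4% of those with one were present in interferon-gamma-treated DCC, and 83.9% and 96% in control DCC. Libraries of interferon-gamma-treated DCC lay wholly above early lesion for 31 genes (35.6%, background 26.8%, the same share among early lesion genes with a TUBO count) and wholly below for 41 (47.1%, background 52.2%). Control DCC lay wholly above early lesion for 47 genes (54%, background 34.5%) and wholly below for 36 (41.4%, background 50.1%). These shares are not matched for level. The lower early lesion value had a median of 6.8 CPM in the 87 and 36 CPM in the background genes. The DCC over early lesion ratio had a median of 0.944 after interferon-gamma and 1.28 in control DCC. The genes without a TUBO count thus included some near 0 in DCC and others above early lesion there, with Sox12 at a control ratio of 23.4, Cdk14 at 19.7 and Man1a at 13.1 among the highest.

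Chromosome X held 7 of the 86 placed genes (8.14%), against 2.99% of early lesion genes with a TUBO count. These were Gpr64, Bhlhb9, Zfp182, Reps2, Armcx1, Rps6ka6 and Xk. On both sides the nearest early lesion gene was at 1 CPM or more in both TUBO libraries for 70 of 86 (81.4%), against 92.9%. A neighbour without a TUBO count stood beside 6 genes (6.98%, against 1.69%), in the pairs Evc and Evc2, Zcchc3 and Sox12, and Disp1 and Susd4. Copy number was not measured.

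Interferon-gamma is the one comparison that the choice of genes did not use, and it was tested by edgeR's quasi-likelihood test on the 4 DCC libraries, with Benjamini-Hochberg adjustment over 14654 genes. Of the 87, 75 had counts enough to be tested. After interferon-gamma 8 were higher (10.7%, against a background of 13.9% of all genes tested), 20 were lower (26.7%, background 15.3%) and 47 did not pass an adjusted p of 0.05. In either direction 28 were called (37.3%), against 29.2% of all genes tested, which is the background. The 20 lower calls, these shares and the median below include Reln, Tmem229a and Ppp2r2c. Those genes had 0 counts after interferon-gamma and passed the filter only through control DCC, so the lower share is a description only. With upper quartile scaling, which moved the median of all genes by -0.18 (log2), the split was 4 higher and 26 lower. The median log2 fold change was -0.45 over the 75 and -0.06 over all genes tested. Neither the medians nor the shares are matched for level, and the background moved with the filter on counts. With at least 50 counts in 2 DCC libraries, the median over all 11888 genes was 0.00 and 1534 of them were lower. The main fit had 2242 lower. With 2 libraries a group, 11 of the 28 calls were kept whichever library was left out, 1 of them for Reln, which had 0 counts after interferon-gamma.

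The lower genes included transcription factors and cofactors. Zfp385b, a zinc finger protein gene, had 0.536 and 0.49 CPM in interferon-gamma-treated DCC and 9.27 and 11.1 CPM in control DCC, a log2 fold change of -4.12 ± 0.44 (SE, adjusted p = 7.49e-04, edgeR). Aff3, of the AF4 family of elongation factors, had 1.43 and 1.68 CPM in interferon-gamma-treated DCC and 17.7 and 19.2 CPM in control DCC (-3.38 ± 0.34, adjusted p = 5.42e-04, edgeR). In both the groups did not overlap. Ednra, the endothelin A receptor, fell to 1.71 and 2.45 CPM in interferon-gamma-treated DCC, against 15 and 12.6 CPM in control DCC (-2.52 ± 0.38, adjusted p = 0.00353, edgeR).
Angpt1 (-2.45 ± 0.26, adjusted p = 7.42e-04, edgeR) and Kctd12, an auxiliary subunit of GABA-B receptors (-2.44 ± 0.17, adjusted p = 1.17e-04, edgeR), also fell. Kctd12 had 31.3 and 27.6 CPM in interferon-gamma-treated DCC and 178 and 183 CPM in control DCC. Zfp521, a zinc finger co-factor of stem and progenitor cells, had 14 and 8.23 CPM in interferon-gamma-treated DCC and 45.6 and 57.5 CPM in control DCC, and fell by 2.05 on the log2 scale (adjusted p = 0.00199, edgeR). All of these calls held with any 1 library left out, as did those of H1fx and Sox12. H1fx had 9.96 and 11.3 CPM in interferon-gamma-treated DCC and 42.7 and 33.6 CPM in control DCC, and Sox12, an SRY-related transcription factor, had 44.2 and 62.1 CPM in interferon-gamma-treated DCC and 145 and 128 CPM in control DCC. Reln, Tmem229a and Ppp2r2c had 0 counts in both interferon-gamma-treated libraries and passed the filter only through control DCC, where they were higher, so their calls are given as values and support nothing. Reln in control DCC was at 23.5 times a floor of 3 counts a library, which is no firm bound. In the interferon-gamma-treated libraries, 56 genes had 0 counts in replicate 1 and 10 or more in replicate 2, and 128 the reverse. Neither the Tmem229a nor the Ppp2r2c call was kept in any fit with a library left out.
In role groups drawn up after the values were seen, 8 of 14 chromatin and transcription genes and 4 of 11 receptors were lower. In both groups 0 were higher. Of all genes tested, 15.3% were lower and 13.9% higher. Both groups hold genes that were not tested, such as Zfp641 and Oxtr, so their counts are a description only. Ptprg fell by 0.86 on the log2 scale (adjusted p = 0.0104, edgeR), and that call was lost when either control library was left out.

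The higher genes included innate sensors. Tbc1d9, which carries a Rab GTPase-activating domain, had 27.6 and 23.2 CPM in interferon-gamma-treated DCC and 8.55 and 9.2 CPM in control DCC (log2 fold change 1.69 ± 0.24, SE, adjusted p = 0.00262, edgeR), and was the only higher call kept with each library left out. Fam49a, a Rac1-binding protein gene, had 4.82 and 2.91 CPM in interferon-gamma-treated DCC and 1.04 and 0.643 CPM in control DCC (2.38 ± 0.62, adjusted p = 0.0269, edgeR), a call lost without control replicate 2 or interferon-gamma replicate 1 (adjusted p = 0.0679 and 0.161, edgeR). Naip2 had 11.9 and 7.88 CPM in interferon-gamma-treated DCC and 0.972 and 3.7 CPM in control DCC (2.20 ± 0.59, adjusted p = 0.0311, edgeR). Its log2 change was 1.57 without control replicate 1 (adjusted p = 0.0743, edgeR) and 3.56 without control replicate 2, and its call was also lost without interferon-gamma replicate 1 (adjusted p = 0.0674, edgeR). Mb21d1 had 13 and 6.97 CPM in interferon-gamma-treated DCC and 5.64 and 3.54 CPM in control DCC. Fam111a, a protease gene that restricts viruses, had 18.4 and 14.7 CPM in interferon-gamma-treated DCC and 9.14 and 8.72 CPM in control DCC. Mb21d1 (1.29 ± 0.41, adjusted p = 0.0475, edgeR) and Fam111a (1.07 ± 0.26, adjusted p = 0.0229, edgeR), rose too. In this role group 3 of 4 genes were called higher, where 13.9% of all genes tested were. The group was drawn up after the values were seen, so this count is a description only. The Mb21d1 and Fam111a calls were lost when either control library was left out, and that of Mb21d1 also without interferon-gamma replicate 1. The calls of Mb21d1, Bhlhb9, Tmem159 and Ncs1 were lost with upper quartile scaling. Panx1, the other one, had 7.71 and 4.66 CPM in interferon-gamma-treated DCC and 5.51 and 3.82 CPM in control DCC. Slit2 and Slc4a7, at log2 changes of 0.38 (adjusted p = 0.154, edgeR) and 0.48 (adjusted p = 0.147, edgeR), did not pass, although both did without interferon-gamma replicate 1.

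Marker lists of other cells also changed between these DCC groups. Of all genes tested, 13.9% were higher and 15.3% lower. Of 16 tested markers of macrophages and monocytes, 15 were higher after interferon-gamma and 0 lower, with summed levels of 1814 and 1126 CPM in interferon-gamma-treated DCC and 157 and 144 CPM in control DCC. All 9 pan-leukocyte markers were higher, at 665 and 500 CPM in interferon-gamma-treated DCC and 84.2 and 70.2 CPM in control DCC. Of 14 fibroblast markers 6 were lower and 2 higher, at 614 and 863 CPM in interferon-gamma-treated DCC and 1300 and 1506 CPM in control DCC. Lower calls were not particular to that list. Of 11 tested pericyte and smooth muscle markers 6 were lower and 0 higher, at 136 and 192 CPM in interferon-gamma-treated DCC and 356 and 385 CPM in control DCC. Of 10 pan-epithelial markers 6 were lower and 2 higher. Their summed level did not fall, at 39.6 and 37.2 CPM in interferon-gamma-treated DCC and 38.4 and 33.8 CPM in control DCC. Epcam, Krt8, Krt18 and Cdh1 of that list were below 0.5 CPM in every DCC library. Their part in the changes of the 87 genes was not tested.

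**Figure D5:**
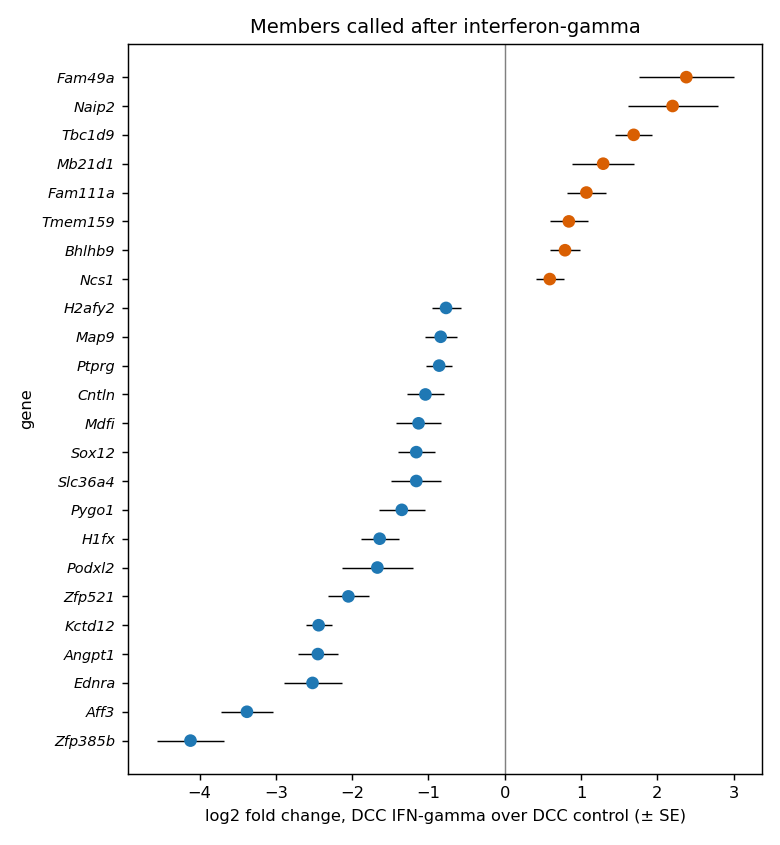
Log2 fold change of interferon-gamma-treated over control DCC (horizontal axis, bars are SE) for called genes (rows), leaving out 1 gene not reported here and Reln, Tmem229a and Ppp2r2c, which had 0 counts after interferon-gamma. The 8 higher genes run from Ncs1 at 0.59 to Fam49a at 2.38, and Zfp385b is lowest at -4.12.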

How the data were processed

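Total RNA was extracted on RNeasy columns and libraries came from a Nugen Ovation kit, as the labels state. The authors deposited raw counts per gene symbol for the 8 libraries. Per the submitters' processing notes the tools were TopHat and HTSeq 0.6.1 and the build mm10; the annotation and the strand setting are not given in the sources used here. From the deposited counts, CPM was computed on the gene rows, leaving out the 5 closing lines; those lines held 35.2% to 63.7% of a library's total. Gene types and coordinates are from GENCODE on GRCm38 and promoters from RefSeq GRCm38.p6.

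The tested comparison, interferon-gamma against control DCC, used edgeR 4.0.16 in R 4.3.3 (quasi-likelihood, TMM, a minimum count of 10, Benjamini-Hochberg adjustment over all tested genes) on the 4 DCC libraries. A run on simulated counts checked the code only. Those counts were drawn from the fit's own levels and spread, so they cannot show the uneven zeros of these libraries. The common biological coefficient of variation was 0.2688 with 2 residual degrees of freedom. Alternatives were other scaling factors, other filters, all 8 libraries, DESeq2 1.42.0, a replicate block and leaving out each library.

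Named genes were the most abundant in early lesion and in DCC, the largest called changes, members of the marker and programme lists and those at the minimum. The genes and lists were chosen with earlier results of these data known. The role groups, the listed relatives, the promoters shown and other named genes, such as Oxtr, Evc and Evc2, were chosen after their values were seen. Values of 1 of the genes are not reported here, although it stays in the counts.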

Additional observations from a re-analysis of the deposited data

How the results depend on the processing

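The number of genes was 87 at a minimum of 3 CPM, 196 at 1 CPM and 31 at 10 CPM, and 88 to 157 when an early lesion or TUBO library was left out, most without TUBO replicate 1. The count present in neither DCC group was 14, was 27 with a presence minimum of 3 CPM, and ran from 9 without control DCC replicate 2 to 14 over single libraries left out. Presence with a library left out ran from 64 to 66 in interferon-gamma-treated DCC and from 70 to 76 in control DCC, and with a minimum of 3 CPM it was 55 and 58.

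The 8 higher calls were 4 with upper quartile factors and 5 each with at least 50 counts in 2 DCC libraries, with all 8 libraries in the fit and with DESeq2. They ranged from 2 to 8 with a library left out, being 2 without either control library, and the 20 lower calls ranged from 11 to 21, being 11 without control replicate 1 and 12 without control replicate 2. With replicate number as a block there were 8 higher and 26 lower calls in the 4-library fit, and 4 and 17 with all 8 libraries. Whether same-numbered DCC libraries share an animal or a batch is not given in the sources used here. Their correlation of deviations was 0.121. No call reversed. With 2 libraries a group, and uneven TUBO counts, both calls and zeros are limited by the number of libraries. The cause of the differences between settings was not tested.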
